A study of Mus musculus with 12 samples.

Results

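Cholesterol is built in the liver from acetyl-CoA, and this account follows the genes of that pathway, together with the SREBP2 system that regulates them and the genes that move or store sterols, in the livers of KK and C57BL/6J mice. The members were taken by name from a list of 32 symbols, 1 of which, Sc4mol, is an older symbol of Msmo1. Of these 31 genes, 26 had a row under their symbol in the expression table, with 1 probe set each, out of 18784 named genes and 21212 probe sets in all. The other 5 (Acat2, Hmgcs1, Idi1, Soat1 and Soat2) were not analysed here. RNA of 12 livers was hybridised, 1 Affymetrix whole-transcript array per liver: 3 KK males, 3 C57BL/6J males, 3 KK females and 3 C57BL/6J females, all 8 weeks old, on chow, housed alone for 3 days and without food for 4 hours. KK mice, used as a model of obesity with insulin resistance, are named KK/HIJ in 1 label field and KK/J in another, and C57BL/6J is the common laboratory strain, called B6 in the plots. The labels name no engineered allele and no agent for any group.

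As background, the mevalonate steps turn acetyl-CoA units into isopentenyl diphosphate, the isoprenoid steps join these into farnesyl diphosphate and squalene, squalene is closed into lanosterol, and a chain of oxidases, reductases and an isomerase trims lanosterol to cholesterol. SREBP2, encoded by Srebf2, is a transcription factor held in the endoplasmic reticulum by SCAP and the INSIG proteins while sterols are plentiful. When sterols run low, SCAP carries it to the Golgi, where proteases release the part that enters the nucleus and raises the transcription of nearly every enzyme of the pathway.

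All values are log2 expression, so that a difference of 1 is a doubling, and levels of different genes are not set against each other. A gene is called where limma's adjusted p, taken over all probe sets, is under 0.05. Array medians lay between 5.90 and 6.03. Means of the 5 measured hepatocyte markers lay between 13.40 and 13.43 in the KK male arrays, 13.49 and 13.53 in C57BL/6J males, 13.40 and 13.45 in KK females and 13.49 and 13.50 in C57BL/6J females.

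Over both sexes, 7 of the 26 genes fell in KK livers and 1 rose. The genes that fell were Sc5d, Pmvk, Ggps1, Tm7sf2, Msmo1, Lss and Ebp, all of them enzymes, and the one that rose was Dhcr7, the reductase that ends one route to cholesterol. The share of all probe sets called was 6.31% lower and 5.42% higher, 11.7% in either direction. Calls were more common among brighter probe sets, where 25 of the members lay. With only probe sets above the median mean fitted, 8 of these 25 fell and 1 rose, while 2404 of 10606 probe sets were called. The 26 genes had a median difference of -0.18, with 23 below 0, while the median over all probe sets was 0.01. For 5 of the genes that fell, Sc5d, Pmvk, Ggps1, Tm7sf2 and Msmo1, all 6 KK values lay below all 6 C57BL/6J values, which held for 3.32% of all probe sets, and for Dhcr7 they all lay above, which held for 2.66%. Within 1 sex, all 3 KK values lay below all 3 C57BL/6J values for 8 of the 26 genes in males and 10 in females. That held for 10.5% of all probe sets in males and 10.6% in females. In bulk liver, fewer cells of a type and less RNA per cell cannot be told apart. The hepatocyte marker means given above were lower in every KK array than in every C57BL/6J array, but the 5 markers did not move as one. Apoa1 averaged 13.35 in KK males, against 13.56 in C57BL/6J males, and 13.03 in KK females, against 13.50 in C57BL/6J females, and Cps1 was lower in KK in each sex as well. In females the means of Alb, Ttr and Fgb were higher in KK (Ttr 13.72 in KK females, against 13.63 in C57BL/6J females). In males Ttr averaged 13.66 in both strains, while Alb and Fgb were slightly lower in KK. Alb averaged 13.93 in KK males, against 13.96 in C57BL/6J males, and Fgb 13.03, against 13.07. Array means of the 4 endothelial markers Stab2, Lyve1, Kdr and Pecam1 lay between 7.61 and 7.83 in KK males, against 7.86 and 8.07 in C57BL/6J males, and between 7.68 and 8.16 in KK females, against 8.10 and 8.25 in C57BL/6J females. Lyve1 differed most among them, with a mean of 6.80 in KK males, against 7.56 in C57BL/6J males, and of 6.80 in KK females, against 7.53 in C57BL/6J females. Array means of the 3 macrophage markers Adgre1, Clec4f and Csf1r lay between 7.44 and 7.87 in KK males, against 8.19 and 8.71 in C57BL/6J males, and between 8.30 and 9.05 in KK females, against 8.67 and 8.84 in C57BL/6J females. The part of these markers in the strain differences was not tested.

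Sc5d, the sterol desaturase that makes the substrate of Dhcr7, differed most. It measured 10.87, 10.59 and 10.91 in KK males, against 11.75, 11.83 and 11.76 in C57BL/6J males. In KK females it measured 10.91, 10.67 and 10.86, against 11.84, 12.04 and 11.99 in C57BL/6J females. The strains stood apart by more than the range of either one, and the difference was -1.07 (SE 0.07, 2.10-fold lower, adjusted p = 7.6e-07). Dhcr7, which acts on the product of Sc5d, ran the other way. It measured 9.58, 9.49 and 9.62 in KK males, against 9.09, 8.78 and 9.09 in C57BL/6J males, and 9.38, 9.41 and 9.48 in KK females, against 8.96, 9.35 and 9.13 in C57BL/6J females. Its difference was 0.43 (SE 0.07, adjusted p = 0.00252), and the 6 KK livers lay within a narrower band than the 6 C57BL/6J livers.

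**Figure D1:**
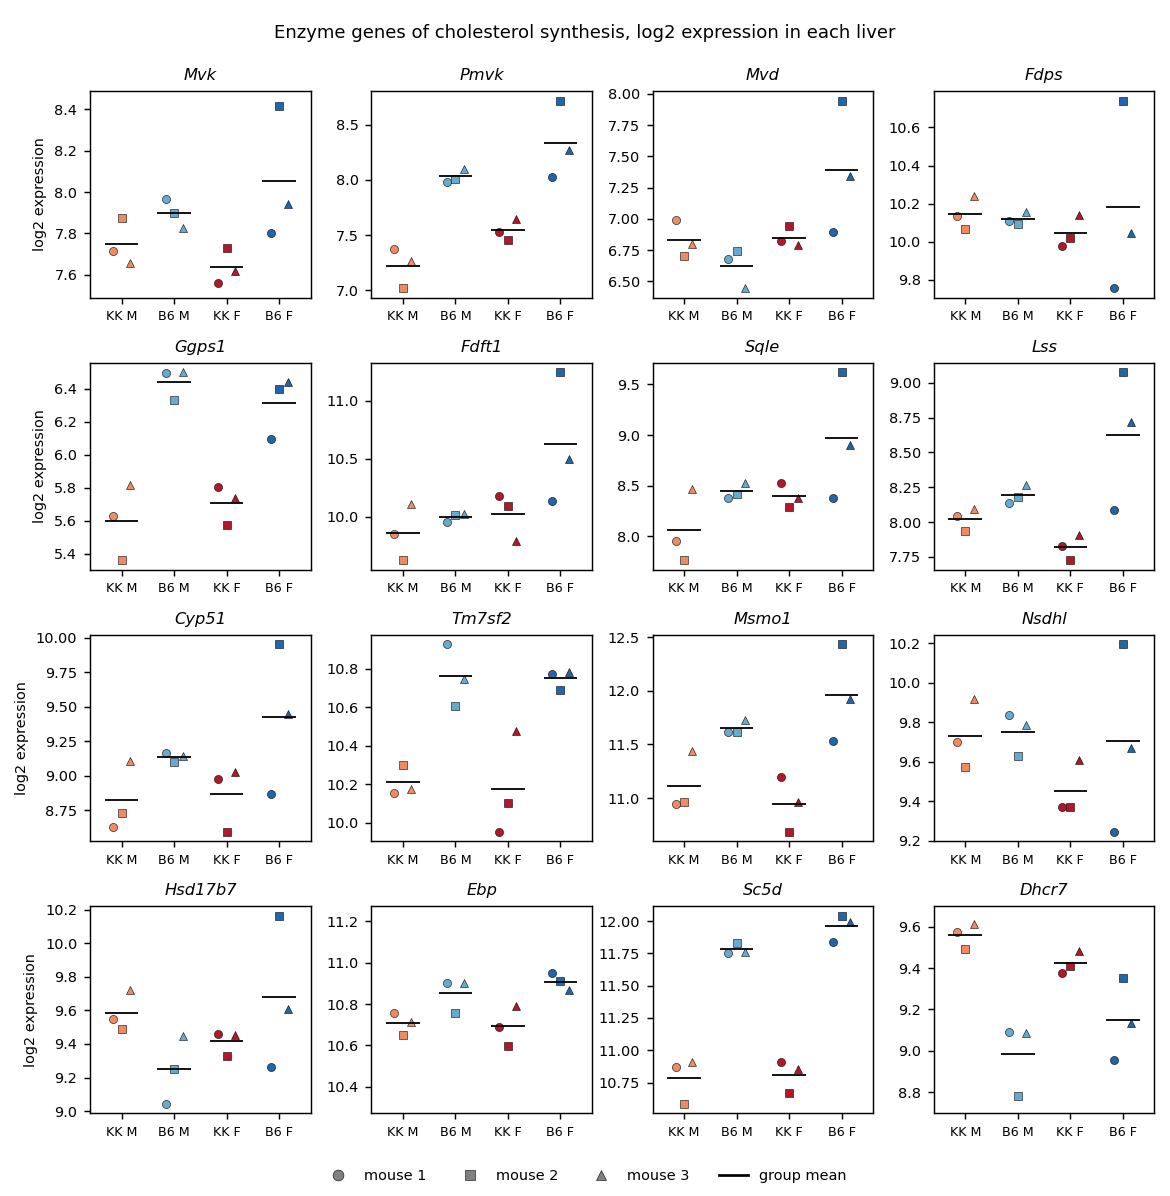
Log2 expression of the 16 enzyme genes in each of the 12 livers, in the order of the pathway; symbols are mice, lines are group means of 3 mice, and each panel has its own vertical scale of at least 1 log2 unit. Sc5d separates KK from B6 in both sexes, while Sqle, Fdft1, Fdps, Cyp51 and Nsdhl spread widely among B6 females.

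Among the mevalonate enzymes, Pmvk, the phosphomevalonate kinase, was the only 1 of 3 called. It measured 7.38, 7.02 and 7.27 in KK males, against 7.98, 8.01 and 8.10 in C57BL/6J males. In KK females it measured 7.53, 7.45 and 7.65, against 8.03, 8.72 and 8.27 in C57BL/6J females. Neither sex showed any overlap between strains, and the difference was -0.80 (SE 0.10, adjusted p = 0.000275). The kinase before it, Mvk, differed by -0.28 (SE 0.09, adjusted p = 0.0707), and the decarboxylase after it, Mvd, by -0.17 (SE 0.14, adjusted p = 0.588). Mvk was called without C57BL/6J female 1 (adjusted p = 0.0255), with only probe sets above the median mean (0.0430), with the replicate number as a block (0.0286) and with a covariate for the interquartile range of the arrays (0.00978). Leaving out each array in turn moved it between -0.35 and -0.19, and 1 of these 12 fits called it.

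Of the 5 genes of the isoprenoid and squalene steps, Ggps1 and Lss fell. Ggps1 makes geranylgeranyl diphosphate, a lipid that is attached to small GTPases, and so stands on a branch that leads away from cholesterol. It measured 5.63, 5.36 and 5.81 in KK males, against 6.49, 6.33 and 6.50 in C57BL/6J males, and 5.80, 5.58 and 5.74 in KK females, against 6.09, 6.40 and 6.44 in C57BL/6J females. KK values were below those of C57BL/6J in each sex, by -0.72 over both (SE 0.09, adjusted p = 0.000145). Lss, which closes the epoxide of squalene into lanosterol, measured 8.05, 7.93 and 8.09 in KK males, against 8.13, 8.18 and 8.26 in C57BL/6J males. Its values were 7.83, 7.73 and 7.91 in KK females, against 8.09, 9.08 and 8.72 in C57BL/6J females. The gap was small in males and wide in females, where 1 of the C57BL/6J livers lay near the males of its strain, and the difference over both sexes was -0.49 (SE 0.13, adjusted p = 0.0262). This call was lost, at an adjusted p between 0.0525 and 0.0619, without KK female 2, C57BL/6J female 3, KK male 1, KK male 2, C57BL/6J male 2 or C57BL/6J male 3. It was also lost with array weights, at an adjusted p of 0.102. The remaining genes were not called: the squalene synthase gene Fdft1 differed by -0.37 (adjusted p = 0.179) and the farnesyl diphosphate synthase gene Fdps by -0.05, with a 95% interval of -0.33 to 0.23. Without C57BL/6J female 1, Fdft1 was called (-0.49, adjusted p = 0.0430). That was 1 of 12 fits that left out 1 array, and at their other end Fdft1 differed by -0.21, with an adjusted p of up to 0.336.

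Sqle, the squalene epoxidase that limits the later part of the pathway and responds strongly to SREBP2, measured 7.96, 7.76 and 8.46 in KK males, against 8.38, 8.42 and 8.53 in C57BL/6J males. In KK females it measured 8.53, 8.29 and 8.38, against 8.38, 9.62 and 8.90 in C57BL/6J females. The strains overlapped in each sex, and C57BL/6J female 2 stood far above all other livers. The difference of -0.47 (SE 0.18, 95% interval -0.86 to -0.09) was not called (adjusted p = 0.117). Leaving out each array in turn moved it between -0.62 and -0.31, with an adjusted p of 0.0195 to 0.242. It was called in 1 of these 12 fits, the one without C57BL/6J female 1 (-0.62).

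Of the 8 genes between lanosterol and cholesterol, Msmo1, Tm7sf2, Ebp and Sc5d fell and Dhcr7 rose. Msmo1, a sterol methyl oxidase, measured 10.94, 10.96 and 11.44 in KK males, against 11.61, 11.61 and 11.73 in C57BL/6J males. In KK females it measured 11.20, 10.69 and 10.97, against 11.53, 12.44 and 11.92 in C57BL/6J females. No KK liver reached the lowest C57BL/6J liver, and the difference was -0.78 (SE 0.15, adjusted p = 0.00386). Tm7sf2, a sterol reductase that acts after Cyp51, measured 10.16, 10.30 and 10.17 in KK males, against 10.93, 10.61 and 10.74 in C57BL/6J males. The values were 9.95, 10.10 and 10.48 in KK females, against 10.78, 10.69 and 10.78 in C57BL/6J females. Here the KK females varied more than the C57BL/6J females, and the difference was -0.56 (SE 0.09, adjusted p = 0.000913).

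Ebp, the sterol isomerase, had the smallest difference among the called genes, -0.18 (SE 0.05, adjusted p = 0.0333). It measured 10.76, 10.65 and 10.71 in KK males, against 10.90, 10.76 and 10.90 in C57BL/6J males, and 10.69, 10.60 and 10.79 in KK females, against 10.95, 10.91 and 10.87 in C57BL/6J females. The sexes taken singly did not overlap, but the highest KK female lay above the lowest C57BL/6J male. Over all probe sets, KK lay wholly below C57BL/6J for 10.5% in males and 10.6% in females. The adjusted p of Ebp was 0.0622 after quantile and 0.0695 after cyclic loess normalization, and between 0.0544 and 0.0798 without KK female 1 or 2, C57BL/6J female 1 or 2, KK male 2 or 3, or C57BL/6J male 1 or 3. The lanosterol demethylase gene Cyp51 differed by -0.44 (SE 0.16, adjusted p = 0.104), and without C57BL/6J female 1 by -0.57 (adjusted p = 0.0107). That was the only 1 of 12 fits without 1 array to call Cyp51, and at their other end it differed by -0.30, with an adjusted p of up to 0.219. The sterol dehydrogenase gene Nsdhl differed by -0.14 (adjusted p = 0.646) and Hsd17b7, which encodes a sterol ketoreductase, by 0.04 (adjusted p = 0.926).

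The promoters of Sc5d and Ggps1, the called genes with the smallest adjusted p, are shown from 250 bases before to 50 bases after the transcription start, in the mouse build GRCm38.p6 (RefSeq). Capitals mark CCAAT, the box bound by NF-Y, and GGGCGG, the box bound by Sp1, on either strand; both factors are known to act together with SREBP2. Sc5d lies at chr9:42264251-42264550 and Ggps1 at chr13:14063439-14063738, both on the minus strand, and the marked boxes share no bases.
Sc5d: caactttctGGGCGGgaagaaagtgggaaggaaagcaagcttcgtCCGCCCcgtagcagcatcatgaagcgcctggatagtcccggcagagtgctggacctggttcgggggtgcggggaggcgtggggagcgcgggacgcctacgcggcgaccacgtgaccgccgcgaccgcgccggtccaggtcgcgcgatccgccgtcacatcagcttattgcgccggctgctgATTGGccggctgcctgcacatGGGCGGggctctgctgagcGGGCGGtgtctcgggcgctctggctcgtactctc
Ggps1: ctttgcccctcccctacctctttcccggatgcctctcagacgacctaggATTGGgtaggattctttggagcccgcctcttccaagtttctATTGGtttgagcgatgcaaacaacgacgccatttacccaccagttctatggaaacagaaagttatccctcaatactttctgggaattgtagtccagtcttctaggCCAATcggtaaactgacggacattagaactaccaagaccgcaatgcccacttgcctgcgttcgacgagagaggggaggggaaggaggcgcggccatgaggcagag
The window of Sc5d held 1 CCAAT and 4 GGGCGG boxes and that of Ggps1 held 3 CCAAT boxes and no GGGCGG. Promoters of this length were found for 21 of the 26 genes, with 27 start sites; Fdps, Fdft1, Sqle, Stard4 and Npc1 had none in the table. CCAAT stood in at least 1 promoter of 20 of the 21 genes, against 42.3% of 17492 protein-coding genes, and GGGCGG in 18 of 21, against 49.2%. The sterol regulatory element in the form TCACNCCAC was found on neither strand for any of the 21, against 1.41% of the 17492 protein-coding genes. At so low a share, its absence from 21 genes says little. These letters describe the windows only.

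Within each sex the same 4 genes fell: Sc5d, Pmvk, Ggps1 and Tm7sf2. In males 4 of the 26 genes fell and 1, Dhcr7, rose (0.58, SE 0.11, adjusted p = 0.00724), while 3.06% of all probe sets were called lower, 2.08% higher and 5.15% either way. In females 6 fell and 0 rose, while 3.31% of all probe sets were called lower and 6.50% either way. The other 2 that fell in females were Msmo1 (-1.01, SE 0.21, adjusted p = 0.011) and Lss (-0.81, SE 0.18, adjusted p = 0.019). Sc5d differed by -0.99 in males and -1.15 in females, Pmvk by -0.81 and -0.80, Tm7sf2 by -0.55 in males and -0.57 in females, and Ggps1 by -0.84 and -0.60. Without C57BL/6J female 1, 12 genes were called in females, adding Mvk (-0.54), Mvd (-0.79), Fdft1 (-0.85), Sqle (-0.86), Cyp51 (-0.84) and Insig1 (-0.55). Each of the added genes was called in only 1 of the 12 fits that left out 1 array. At the other end of these fits they differed by -0.24, -0.27, -0.29, -0.24, -0.29 and -0.32, in the same order. Without KK female 1 or KK female 2, 4 were called, with Tm7sf2 at an adjusted p of 0.0545 and 0.0510 and Lss at 0.0560 and 0.0643. Without C57BL/6J female 3, Lss had an adjusted p of 0.0694. Tm7sf2 was not called in males without KK male 1 or 3 or C57BL/6J male 1 or 3, at an adjusted p between 0.0560 and 0.0813. With only the 2 female groups fitted, Tm7sf2 had an adjusted p of 0.0502 and Lss of 0.0928. With array weights Lss was not called in females (0.111), while Dhcr7 was (0.39, adjusted p = 0.0357), and Msmo1 was called in males (-0.63, adjusted p = 0.0379). Array weights raised the calls over all 21212 probe sets from 1092 to 2423 in males and from 1378 to 1905 in females. With only probe sets above the median mean, the counts of members did not change. There 1161 of 10606 probe sets were called in males and 1362 in females.

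**Figure D2:**
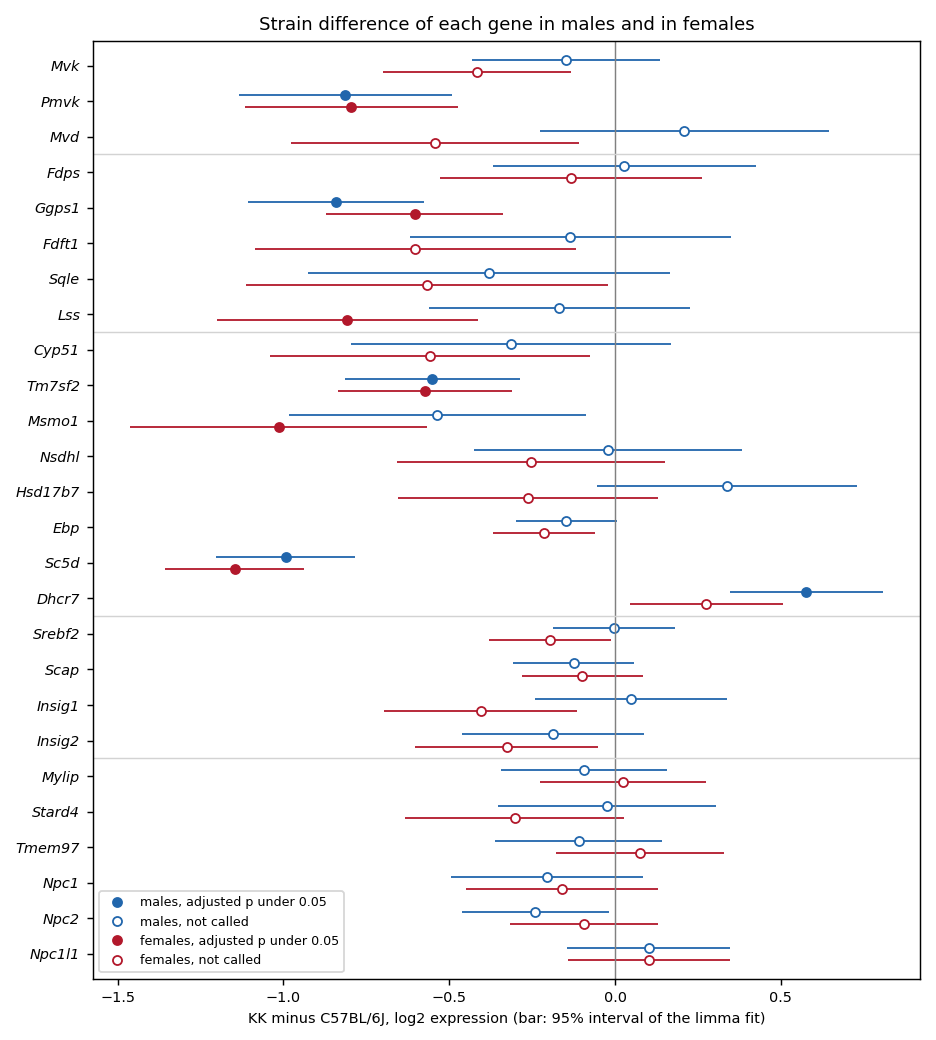
KK minus C57BL/6J difference of each of the 26 genes in males (blue) and in females (red), on the log2 scale, with 95% intervals of the limma fit; filled points are called and grey lines divide the roles. Sc5d, Pmvk, Ggps1 and Tm7sf2 are filled in each sex, and Dhcr7 lies to the right of 0.

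Whether the gap between strains depended on sex was tested by the interaction, taken as the gap in males less the gap in females. By limma 0 of the 26 genes were called, against 0.141% of all probe sets. At an unadjusted p under 0.05, for which the share of all probe sets was not counted, there were 4. Those were Mvd (0.75, SE 0.28, adjusted p = 0.711), Lss (0.64, SE 0.26, adjusted p = 0.726), Hsd17b7 (0.60, SE 0.25, adjusted p = 0.765) and Insig1 (0.45, SE 0.19, adjusted p = 0.764). The 95% interval of the interaction was -0.14 to 0.45 for Sc5d and -0.35 to 0.39 for Tm7sf2. Without C57BL/6J female 1 the interaction of Lss was called (0.91, adjusted p = 0.0453). That was 1 of 12 fits that left out 1 array, and at their other end the interaction was 0.42.

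In C57BL/6J females the enzyme genes varied between mice far more than most transcripts. Their spread was modestly larger than that of all probe sets in KK males, about the same in KK females and smaller in C57BL/6J males. The median SD of the 16 enzyme genes was 0.16 in KK males, 0.07 in C57BL/6J males, 0.11 in KK females and 0.46 in C57BL/6J females, while over all probe sets it was 0.11, 0.10, 0.11 and 0.10 in the same groups. Of the 16 genes, 13 were highest of their group in C57BL/6J female 2 and 14 were lowest in C57BL/6J female 1. The median deviation of the 16 genes from their group mean was 0.46 in female 2, -0.42 in female 1 and -0.04 in female 3, against 0.01, -0.01 and 0.00 over all probe sets. The interquartile range of these 3 arrays was 2.84 for female 1, 2.74 for female 2 and 2.97 for female 3, within the 2.64 to 2.97 of all arrays. KK males showed a smaller split, with 11 of the 16 genes highest in male 3 and 12 lowest in male 2. Their median deviations were 0.11 in male 3 and -0.11 in male 2. KK male 2 had the narrowest interquartile range of all arrays (2.64), while KK male 3 had 2.87. In KK females 8 of the 16 genes were highest in female 3 and 10 lowest in female 2. The shares of all probe sets highest or lowest in each of these arrays were not counted.

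The spread was not shared by all enzymes. Pooled over the 4 groups, the SD of 9 of the 16 (Mvd, Fdps, Fdft1, Sqle, Lss, Cyp51, Msmo1, Nsdhl and Hsd17b7) was above the 95th percentile of all probe sets, led by Sqle with 0.37, where the median of all was 0.12. Ebp (0.07), Sc5d (0.12), Dhcr7 (0.14), Tm7sf2 (0.16) and Ggps1 (0.17) were the 5 steadiest enzyme genes. Among the 9 variable genes Msmo1 and Lss were called between strains, and among the 5 steadiest all were. Between these lists, Mvk (0.18) was not called and Pmvk (0.21) was. The SD is part of limma's test, so calls by spread are not a separate result. Of the variable genes that were not called, Sqle, Cyp51 and Fdft1 had larger estimated differences than Ebp.

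**Figure D3:**
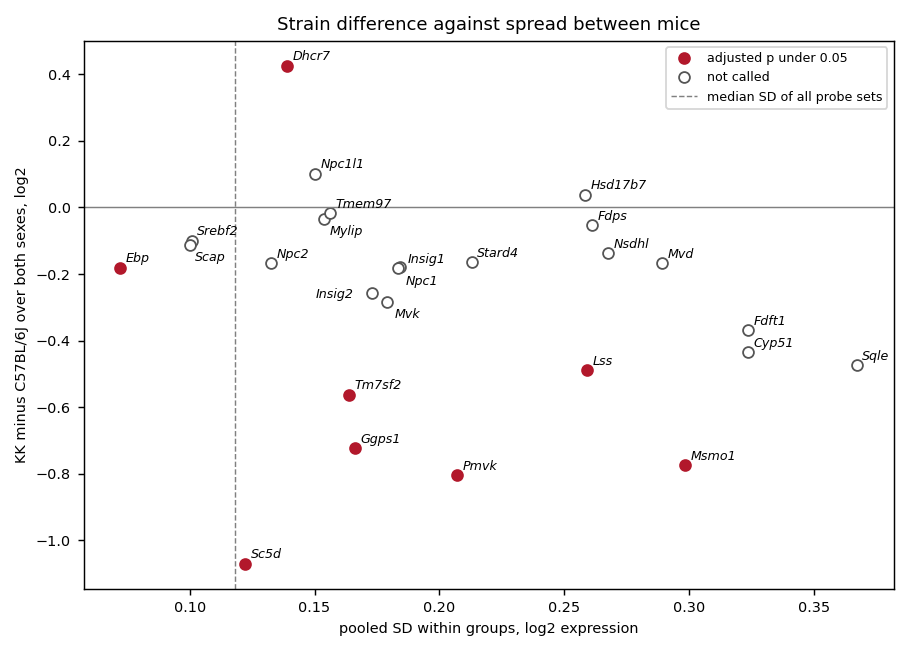
KK minus C57BL/6J difference over both sexes (log2) of each gene against its pooled SD within groups (log2); filled points are called and the dashed line is the median SD of all probe sets, 0.12. Sqle, Cyp51 and Fdft1 lie at the right, uncalled, while Sc5d lies lowest with an SD near the median.

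**Figure D4:**
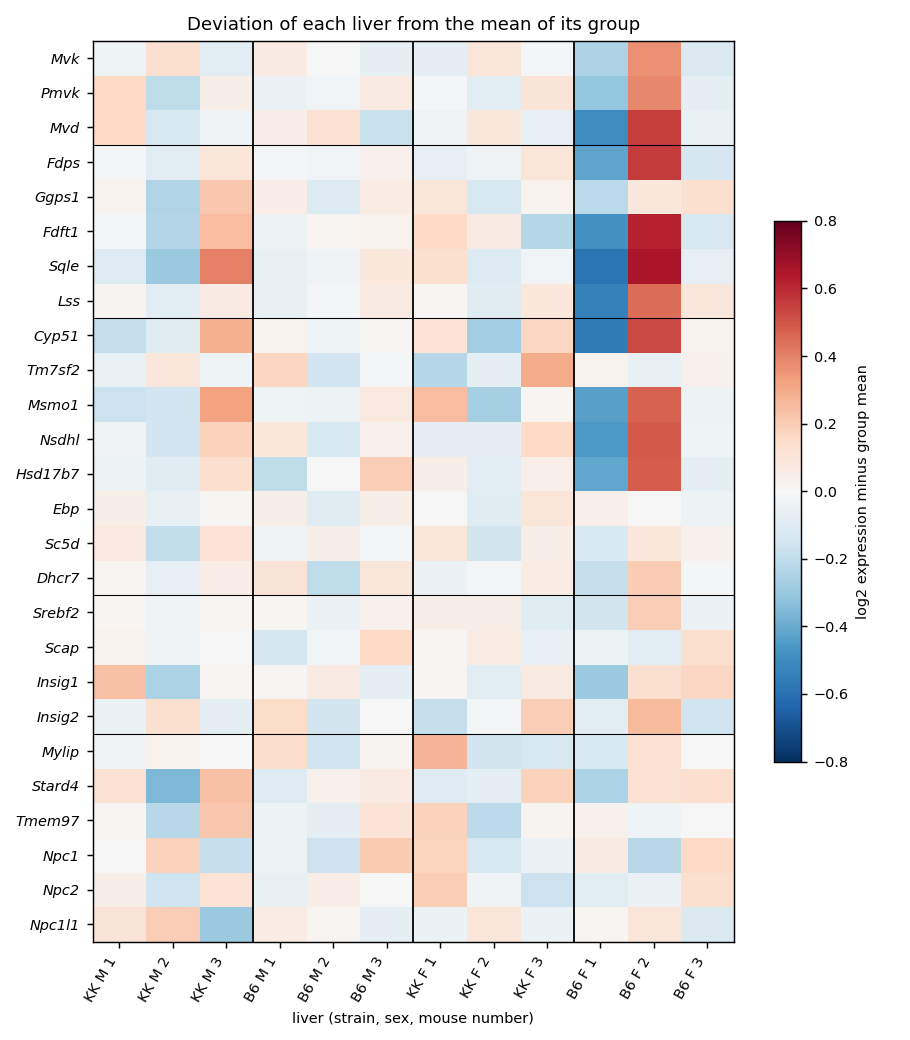
Log2 expression of each gene minus the mean of its group, for the 12 livers, with genes in the order of the pathway (colours run from -0.8 to 0.8). B6 female 1 is blue and B6 female 2 red for most enzymes, with 14 of 16 lowest in the first and 13 of 16 highest in the second, while Ebp and Sc5d vary little.

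By limma, none of the 4 genes of the SREBP2 system was called between strains over both sexes, and only Insig2 had an unadjusted p under 0.05. Srebf2 measured 8.06, 8.01 and 8.06 in KK males, against 8.06, 8.00 and 8.08 in C57BL/6J males, and 8.44, 8.44 and 8.29 in KK females, against 8.44, 8.78 and 8.53 in C57BL/6J females. The strains coincided in males, and the difference over both sexes was -0.10 (SE 0.06, 95% interval -0.23 to 0.03, adjusted p = 0.386). Scap, whose product escorts SREBP2, measured 9.22, 9.17 and 9.19 in KK males, against 9.18, 9.30 and 9.48 in C57BL/6J males. It measured 9.39, 9.44 and 9.31 in KK females, against 9.44, 9.39 and 9.61 in C57BL/6J females, a difference of -0.11 (SE 0.06, adjusted p = 0.308). The strains overlapped in each sex.

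The retention genes Insig1 and Insig2 were not called either. Insig1, itself a target of SREBP2, measured 11.42, 10.93 and 11.20 in KK males, against 11.15, 11.20 and 11.06 in C57BL/6J males. It measured 11.13, 11.03 and 11.18 in KK females, against 11.22, 11.65 and 11.69 in C57BL/6J females. The females did not overlap, the males did, and the difference in females was -0.41 (SE 0.13, adjusted p = 0.108). KK females lay wholly below C57BL/6J females for 10.6% of all probe sets. Insig2, whose product has the same retaining role, measured 11.03, 11.22 and 11.01 in KK males, against 11.42, 11.13 and 11.27 in C57BL/6J males. It measured 10.75, 10.91 and 11.13 in KK females, against 11.16, 11.51 and 11.10 in C57BL/6J females, with a difference over both sexes of -0.26 (SE 0.09, adjusted p = 0.0915). Insig2 overlapped between strains in each sex, and it was called without KK female 3 (adjusted p = 0.0484) and with a covariate for the interquartile range of the arrays (0.0225). Of the 12 fits that left out 1 array, only that 1 called Insig2, and the adjusted p reached 0.193.

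No gene of sterol uptake and transport was called by limma between strains either, out of 6, and only Npc2 had an unadjusted p under 0.05. Mylip, a ubiquitin ligase gene driven by the sterol receptor LXR whose product marks lipoprotein receptors for degradation, measured 7.13, 7.19 and 7.17 in KK males, against 7.40, 7.10 and 7.28 in C57BL/6J males. It measured 7.78, 7.36 and 7.38 in KK females, against 7.36, 7.60 and 7.49 in C57BL/6J females. The strains overlapped in each sex, and the difference was -0.04 (SE 0.08, 95% interval -0.21 to 0.14). The sterol carrier gene Stard4 differed by -0.16 (SE 0.11), Tmem97, a partner gene of NPC1, by -0.02 (SE 0.08), the lysosomal cholesterol transporter gene Npc1 by -0.18 (SE 0.09), Npc2, which hands cholesterol to NPC1, by -0.17 (SE 0.07), and the sterol uptake gene Npc1l1 by 0.10 (SE 0.08). Their adjusted p-values ran from 0.188 for Npc2 to 0.948 for Tmem97.

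Srebf2 was lower in males than in females. In C57BL/6J, males differed from females by -0.54 (SE 0.08, adjusted p = 0.00718), and it was the only 1 of the 26 genes called, where 0.674% of all probe sets were called lower and 1.03% either way. In KK, males differed by -0.34 (SE 0.08, adjusted p = 0.062), and limma called 0 of the 26 genes, where 2.17% of all probe sets were called. At an unadjusted p under 0.05, for which the share of all probe sets was not counted, there were 5. In KK, Srebf2 was called without C57BL/6J female 2 (adjusted p = 0.0256), where its difference was still -0.34, and Npc2 without KK female 3 (adjusted p = 0.0382). Each was called in only 1 of the 12 fits that left out 1 array, with an adjusted p of up to 0.250 for Srebf2 and 0.319 for Npc2. In C57BL/6J, Srebf2 had an adjusted p of 0.0541 with only the 2 groups fitted. All 6 males of both strains lay at 8.00 to 8.08 and all 6 females at 8.29 to 8.78. The share of all probe sets with the sexes so apart was not counted. The comparison over both strains, added after the data were seen, gave -0.44 for Srebf2 (SE 0.06, adjusted p = 0.00129). It called 2 of the 26 genes lower in males, where 2.57% of all probe sets were lower and 3.66% were called either way. With only probe sets above the median mean, 2 of 25 members were called lower, while 809 of 10606 probe sets were called either way. For Srebf2 the sex differences of the strains differed by 0.19 (SE 0.12, adjusted p = 0.851).

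The other gene lower in males over both strains was Npc2. It measured 8.24, 8.03 and 8.30 in KK males, against 8.79, 8.56 and 8.42 in KK females, and 8.37, 8.49 and 8.44 in C57BL/6J males, against 8.60, 8.64 and 8.81 in C57BL/6J females. The sexes did not overlap within either strain, and the difference was -0.32 (SE 0.07, adjusted p = 0.0283). Males lay wholly below females for 8.41% of all probe sets in KK and 6.82% in C57BL/6J. It was not called without KK female 1, C57BL/6J female 3, KK male 1 or 2, or C57BL/6J male 1 or 3, where the adjusted p reached 0.0736. The array means of the 3 macrophage markers lay between 7.44 and 7.87 in KK males, against 8.30 and 9.05 in KK females, and between 8.19 and 8.71 in C57BL/6J males, against 8.67 and 8.84 in C57BL/6J females. Their part in the Npc2 difference was not tested. None of the enzymes was called by limma between the sexes, in either strain or over both. An unadjusted p under 0.05 was found for Pmvk in KK, for Mvd, Fdft1, Lss and Hsd17b7 in C57BL/6J, and for Pmvk, Mvd, Fdft1 and Sqle over both strains. The share of all probe sets at that threshold was not counted. Mvd came nearest in C57BL/6J males, at -0.77 against C57BL/6J females (SE 0.20, adjusted p = 0.129), and without C57BL/6J female 1 both Mvd (-1.02, adjusted p = 0.0121) and Lss (-0.71, adjusted p = 0.0093) were called there. Without that liver, Pmvk (-0.39, adjusted p = 0.0499) and Mvd (-0.52, adjusted p = 0.0287) were called over both strains. Each of these calls was made in only 1 of the 12 fits that left out 1 array. At the other end of these fits Mvd differed by -0.49 and Lss by -0.21 in C57BL/6J. Over both strains Pmvk differed there by -0.22 and Mvd by -0.26. Mylip was called over both strains with array weights (-0.26, adjusted p = 0.0489), against -0.29 without them (adjusted p = 0.0816). These weights raised the calls over all probe sets from 777 to 1701 of 21212.

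**Figure D5:**
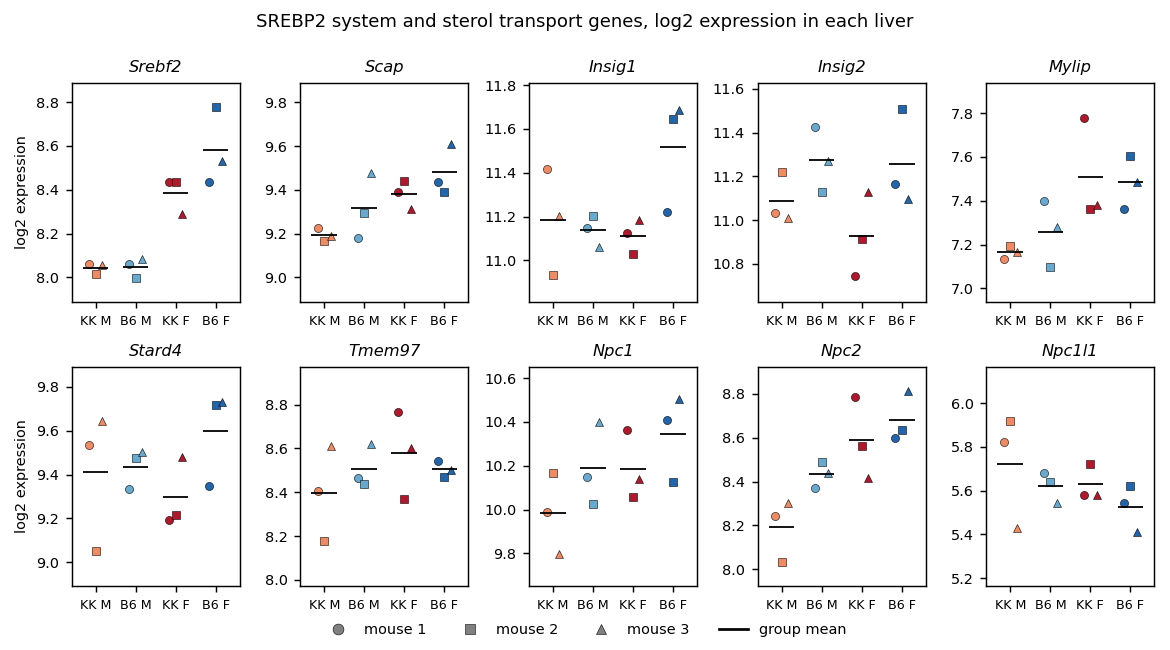
Log2 expression of the 10 genes of the SREBP2 system and of sterol transport in each liver; symbols are mice, lines are group means of 3 mice, and each panel has its own vertical scale. Srebf2 lies at 8.00 to 8.08 in all males and at 8.29 to 8.78 in all females.

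Around these genes, 46 of 53 listed neighbours of the pathway had a row, and 5 rose and 5 fell in KK over both sexes. Over all probe sets 5.42% were called higher and 6.31% lower. The sterol exporter genes Abcg5 (-0.85, SE 0.06) and Abcg8 (-0.86, SE 0.08) were the 2 called among 6 genes of LXR and sterol efflux. Of 5 electron donors and partners of sterol enzymes, Lbr, whose product can perform the same reduction as that of Tm7sf2, fell by 0.39 (SE 0.08, adjusted p = 0.00712), and the reductase gene Cyb5r3 rose by 0.32 (SE 0.06, adjusted p = 0.00226). Aacs, which makes acetoacetyl-CoA for the pathway from ketone bodies, was the only 1 of 4 called among genes of acetyl-CoA supply and rose by 0.66 (SE 0.15, adjusted p = 0.0143). Of 10 genes of the isoprenoid branches Pdss2, a ubiquinone side chain gene, rose by 0.30 and Rabggtb, a prenyltransferase subunit gene, fell by 0.42. Among 11 genes of SREBP cleavage and sterol-regulated degradation only the ubiquitin-conjugating enzyme gene Ube2g2 was called (0.22, adjusted p = 0.0366), and of 7 sterol transfer genes Gramd1a rose by 0.31 and Stard3 fell by 0.20. Mmab, Rdh11 and Pcyt2, the genes listed for SREBP2 sites nearby, were not called. In C57BL/6J females Mmab measured 7.36 in female 1, 8.03 in female 2 and 7.79 in female 3, and Rdh11 9.15, 9.83 and 9.40. Pcyt2 measured 10.47, 10.57 and 10.62 in the same livers. All of them were lowest in female 1, and Mmab and Rdh11, but not Pcyt2, were highest in female 2. These genes were picked for this after their values were seen, and the share of all probe sets in that order was not counted.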

How the data were processed

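Liver RNA of 12 mice was measured on Affymetrix whole-transcript arrays. The authors made the deposited log2 values with RMA and the affy package, per the submitters' processing notes; versions, the background settings and the build are not given in the sources used here. Probe sets are numbered by Entrez gene, and of 21212 there were 18786 with exactly 1 symbol in the platform annotation. Scanner files were not used here, so single probes, and any effect of sequence differences between the strains on them, were not tested. The labels number the replicates without saying what separates them, so p-values measure the spread between these samples. Each value is 1 array, and the number of arrays limits the precision.

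All 12 arrays were fitted in R 4.3.3 with limma 3.58.1 (lmFit, eBayes), with 1 mean per strain and sex and no filter. The tests were two-sided, and p-values were adjusted by Benjamini and Hochberg over all probe sets. The 6 planned comparisons were KK minus C57BL/6J in males, in females and in both sexes together, male minus female in each strain, and the interaction; male minus female over both strains was added after the data were seen. SE and 95% intervals are limma's. The SD of a group is over 3 mice, and a pooled SD combines all groups. The pipeline was tested on simulated data.

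Members, lists, comparisons and alternatives were chosen with earlier results of these data known. All members with a row are described. Arrays are named by the replicate number of the titles. Values are given per liver for called members and for Srebf2, Scap, Insig1, Insig2, Sqle and Mylip, and up to 3 called neighbours per class are named; the neighbours given for C57BL/6J females were chosen after their values were seen. Promoters came from RefSeq. Alternatives were 2 normalizations, a filter on dim probe sets, a trend with robust prior, array weights, the replicate block, the interquartile range as covariate, only the 2 groups compared, a fold of at least 1.5, and each array left out.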

Additional observations from a re-analysis of the deposited data

How the results depend on the processing

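No gene changed direction on a call under any of the alternatives run, including quantile and cyclic loess normalization, in any of the 7 comparisons. The 2 normalizations changed the estimated differences by a median over all probe sets of about 0.03 at most in any comparison. Of the values of single genes under the alternatives other than the fold of at least 1.5, 3489 kept their side of the threshold, 36 lost and 30 gained it. Most of these values were not called in the main fit and had no call to lose. The 36 losses therefore came from the far smaller number of called ones. The count of 8 genes called between strains over both sexes was 7 to 10 under the other settings, but 4 with a fold of at least 1.5 as well, which removed Tm7sf2, Lss, Ebp and Dhcr7. With that fold 3 of 5 were left in males, 5 of 6 in females (Tm7sf2 was lost), 0 of 1 between the sexes of C57BL/6J and 0 of 2 between the sexes over both strains. In KK the count between the sexes was 1 rather than 0 with only probe sets above the median mean (Srebf2). There 495 of 10606 probe sets were called. It was 2 with array weights (Srebf2 and Npc2), where calls over all probe sets rose from 460 to 2058 of 21212. In C57BL/6J the count was 0 when only the 2 groups compared were fitted, where Srebf2 had an adjusted p of 0.0541. For strain over both sexes, calls over all probe sets rose from 2488 to 3521 with array weights. They rose to 3113 with the replicate block and to 3703 with the interquartile range as covariate.

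Leaving out each array in turn gave 6 to 11 genes for the strain difference, 4 to 5 in males, 4 to 12 in females, 0 to 1 between the sexes of KK, 1 to 3 between those of C57BL/6J, 1 to 4 over both strains and 0 to 1 for the interaction. The highest counts for the strain difference, for females, for the sexes of C57BL/6J, for both strains and for the interaction came without C57BL/6J female 1.

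The labels do not say that a replicate number marks a shared batch, and not every same-numbered pair of arrays deviated together, so the numbers were not taken as a pairing. Of 18 same-numbered pairs from different groups, 10 had deviations correlated above 0.1 (-0.36 to 0.48), against 8 of 36 other pairs (-0.51 to 0.48). As a hint from the data, 8 of 12 arrays correlated best with one of their own number. With the replicate block, 9 genes were called over both sexes, 5 in males, 7 in females, 0 and 1 between the sexes of KK and of C57BL/6J, 2 over both strains and 0 for the interaction; the gene gained was Mvk, over both sexes (adjusted p = 0.0286) and in females (0.0360).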
